A study of Mus musculus with 6 samples.

Results

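The miR-106b-25 and miR-106a-363 clusters are paralogues of the miR-17-92 cluster, and 7 of their mature miRNAs were followed here in type H and type L endothelial cells (ECs) of mouse bone. They were mmu-miR-106b-5p, mmu-miR-106b-3p, mmu-miR-93-5p and mmu-miR-25-3p of the first cluster, and mmu-miR-106a-5p, mmu-miR-20b-5p and mmu-miR-363-3p of the second. The members were taken by name from the 1881 miRNAs of the array, not by a rule on their signal, but with earlier results of these data known. Of the 7, 6 had rows of their own on the array, 4 were detected on all 6 arrays and could be tested, and 2 were detected on none. The remaining one, miR-106a-5p, shared its probes with another miRNA.

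Type H ECs carry high CD31 and endomucin (CD31hiEmcnhi) and type L ECs carry low levels of both (CD31loEmcnlo). Both were sorted from bone marrow of wild type C57BL/6 mice at 1 month of age, and 3 arrays, labelled as biological replicates, were run for each cell type. The sample labels give the mice as male and the study's methods as female, and the labels describe culture of the sorted cells in an endothelial growth medium. The sources used here do not state how many animals stood behind a sample, or whether the array RNA was taken before or after that culture. The 3 type H arrays lay on one slide and the 3 type L arrays on another, so an effect of the slide and one of the cell type cannot be told apart in any value below. In bulk samples of this kind, fewer cells of a type and less RNA per cell cannot be told apart either.

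A miRNA guides the Argonaute complex to messenger RNAs that pair with its seed, the bases near its 5′ end, and lowers their translation or stability. Members of the 3 paralogous clusters share a few seeds and are best known for promoting proliferation and survival, with transcripts of cell cycle inhibitors and of the pro-apoptotic gene Bim among their targets. The miR-106b-25 hairpins sit in an intron of Mcm7, which encodes a subunit of the replicative helicase, while the miR-106a-363 hairpins lie on the X chromosome. In ECs the miR-17-92 family has been studied as a regulator of vessel sprouting.

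In the RefSeq annotation of GRCm38.p6, the 3 hairpins of miR-106b-25 occupy 498 bases on the minus strand at chr5:138165321-138165818, inside Mcm7 on the same strand at chr5:138164583-138172111. The 6 hairpins of miR-106a-363 (Mir106a, Mir18b, Mir20b, Mir19b-2, Mir92-2 and Mir363) occupy 875 bases on the minus strand at chrX:52741693-52742567. The mature sequences, also from RefSeq, are shown because seed and single-base differences decide what each array signal can stand for. Capitals mark the seed, bases 2 to 8, and miR-17-5p, miR-20a-5p and miR-92a-3p of miR-17-92 are set beside the 7 members.
miR-106b-5p: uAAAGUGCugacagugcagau
miR-93-5p: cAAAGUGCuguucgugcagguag
miR-106a-5p: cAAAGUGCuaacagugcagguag
miR-20b-5p: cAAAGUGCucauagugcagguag
miR-17-5p: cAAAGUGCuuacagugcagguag
miR-20a-5p: uAAAGUGCuuauagugcagguag
miR-25-3p: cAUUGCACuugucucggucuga
miR-363-3p: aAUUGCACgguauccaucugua
miR-92a-3p: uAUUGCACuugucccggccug
miR-106b-3p: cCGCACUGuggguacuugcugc
The seed AAAGUGC was held by 4 members (miR-106b-5p, miR-93-5p, miR-106a-5p and miR-20b-5p), and by 7 of the 1674 mouse mature sequences in the table in all. A second seed, AUUGCAC, joined miR-25-3p and miR-363-3p and occurred in 6 of the 1674. The seed of miR-106b-3p, CGCACUG, occurred in that miRNA alone.

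The 23-base miRNAs with the seed AAAGUGC differ from each other in few bases. Counted from 1 at the 5′ end, miR-93-5p and miR-20b-5p differ at 3 positions, G10C, U11A and C13A, with the base of miR-93-5p first. Between miR-20b-5p and miR-20a-5p there are 2 differences, C1U and C10U, with the base of miR-20b-5p first. From miR-106a-5p to miR-17-5p there is 1 difference, A10U.

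That single base decided what could be read of miR-106a-5p. The array has no row under its name, and both probes listed for miR-17-5p also match it. The shorter probe, ctacctgcactg, pairs with bases 12 to 23 of either miRNA, and the longer probe, ctacctgcactgt, with bases 11 to 23, so position 10 is read by neither. The array's own annotation places both probes on chromosomes 14 and X. The signal of these probes was 2.80, 1.65 and 1.49 intensity units on the type H arrays and 1.10, 1.52 and 1.09 on the type L arrays. It was called detected on 1 array, the first of type H, and was left out of the test by the filter. On that array the total per miRNA in the deposited data was 185.6 for miR-17-5p, against the 2.80 of its own probes. The cause of this gap was not tested. No level of miR-106a-5p can be given from either value, and none of the 180 spots of these probes was well above background.

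miR-106b-3p, the other strand of the Mir106b hairpin, was detected on 0 of 6 arrays. Its 4 probes summed to between -0.30 and 0.30 intensity units, below the lowest signal of any detected miRNA on each array, which ran from 0.688 to 1.92. miR-363-3p, which shares its seed with miR-25-3p, was likewise detected on 0 arrays, with sums between -0.14 and 0.35. For both, 0 of 180 spots were well above background, so these arrays give no fold for either. A further 9 mature arms that only these 2 clusters give, miR-18b-5p and miR-18b-3p among them, were on the array and none was detected on any array. miR-18b-3p, though not called detected, read 3.42, 3.26 and 2.71 on type H and 1.79, 1.82 and 1.74 on type L. On each array this lay above the lowest signal of a detected miRNA. The arms that miR-106a-363 shares with miR-17-92, miR-19b-3p and miR-92a-3p, were detected and are given with that cluster.

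For the other members, the signal is the sum of the background-subtracted totals of a miRNA's own probes, in intensity units before normalization. miR-106b-5p, the first miRNA of its cluster, read 172.6, 137.4 and 138.0 on the type H arrays and 105.5, 114.3 and 116.3 on the type L arrays. miR-93-5p, its neighbour with the same seed, read 95.0, 80.3 and 77.7 on type H and 54.4, 58.7 and 61.1 on type L. miR-25-3p, which carries the seed of miR-92a-3p, read 121.2, 103.3 and 97.8 against 77.4, 84.7 and 87.1. For each of these 3 miRNAs, every type H array was brighter than every type L array, and the first type H array was the brightest of all. miR-20b-5p, from the X-linked cluster, read 43.5, 35.7 and 35.1 on type H and 14.5, 15.3 and 17.4 on type L. Its lowest type H array therefore lay well above its highest type L array.

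All 180 spots of miR-106b-5p, of miR-93-5p and of miR-25-3p were well above background, as were 176 of 180 for miR-20b-5p, and no spot was saturated. The coefficient of variation among the repeated spots of one probe on one array was 2.53 to 6.31% for miR-106b-5p and 2.77 to 10.9% for miR-93-5p. It was 3.57 to 18.1% for miR-25-3p and 3.98 to 14.0% for miR-20b-5p.

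Signals were then quantile-normalized across arrays and put on the log2 scale, and the cell types were compared with limma over the 311 miRNAs that the scanner software detected on every array of either cell type or of both. Arrays on which a miRNA held the same rank received the same normalized value, which narrows the spread within a cell type. The log2 levels of miR-20b-5p were 5.37, 5.40 and 5.40 in type H and 3.77, 3.79 and 3.98 in type L. Its mean was 5.39 ± 0.019 (SD, n = 3) against 3.84 ± 0.12 (SD, n = 3), a log2 difference of 1.55 (SE 0.062, limma adjusted p = 7.3e-06) or 2.92-fold. The gap between the lowest type H and the highest type L array was 1.39 on the log2 scale, and miR-20b-5p ranked 11th of 311 by its difference.

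The 3 detected miRNAs of miR-106b-25 rose by less. Log2 levels of miR-93-5p were 6.33, 6.30 and 6.42 in type H and 5.82, 5.86 and 5.86 in type L, a difference of 0.51 (SE 0.040, limma adjusted p = 7.3e-05). Those of miR-106b-5p were 7.29, 7.20 and 7.29 against 6.81, 6.91 and 6.83, a difference of 0.41 (SE 0.043, limma adjusted p = 0.00024). miR-25-3p stood at 6.70, 6.72 and 6.70 against 6.48, 6.49 and 6.48, a difference of 0.22 (SE 0.024, limma adjusted p = 0.00027). These correspond to 1.42-fold, 1.32-fold and 1.17-fold, and in no case did the arrays of the cell types overlap. Ranked by difference among the 311, miR-93-5p was 86th, miR-106b-5p 97th and miR-25-3p 127th.

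**Figure D1:**
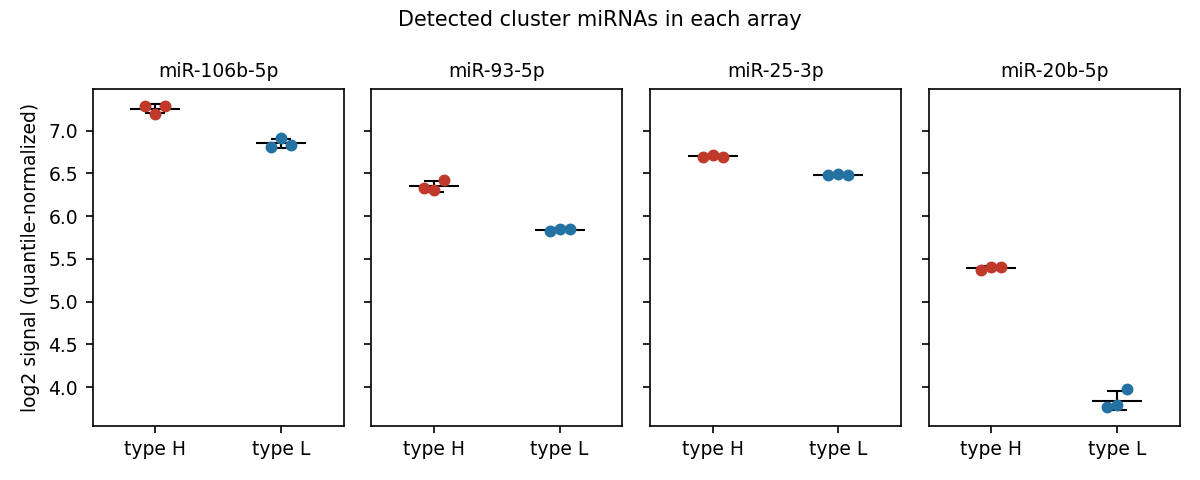
Quantile-normalized log2 signal (vertical axis) of the 4 detected members on each type H array (red points) and type L array (blue points), with the mean (horizontal line) and SD (bars) of the 3 arrays. Type H lay above type L on every array for each miRNA, with the mean of miR-20b-5p at 5.39 against 3.84 and that of miR-25-3p at 6.70 against 6.48.

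Calls of this kind were common on these arrays, so they say little about the members in particular. The fit called 270 of the 311 miRNAs (86.8%) in either direction at an adjusted p under 0.05, and 139 (44.7%) were higher in type H. Every type H array stood above every type L array for 142 miRNAs (45.7%). Of the members, 4 of the 4 that could be tested met each of these criteria. An exact two-sided permutation test of a single miRNA over 3 against 3 arrays gave p = 0.10 for each member, which is the smallest value this design allows.

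The median log2 difference of the 231 miRNAs detected on all 6 arrays was 0.11 in the quantile-normalized data and -0.22 when each array was instead scaled to its 75th percentile over these miRNAs. Relative to that median, the quantile-normalized differences were 1.44 for miR-20b-5p, 0.40 for miR-93-5p, 0.30 for miR-106b-5p and 0.11 for miR-25-3p. After 75th percentile scaling they were 1.39, 0.65, 0.52 and 0.48 in the same order. Under that scaling 274 of the 311 miRNAs (88.1%) were called and 98 (31.5%) were higher in type H, with the 4 members again among the latter. Of the 4, miR-25-3p changed its distance from the median the most between these scalings.

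The 3 miRNAs of miR-106b-25 come from 1 primary transcript, and their differences between cell types were compared within each array. The log2 level of miR-93-5p minus that of miR-25-3p was -0.37, -0.42 and -0.27 on type H arrays and -0.66, -0.64 and -0.62 on type L arrays. miR-93-5p therefore gained 0.29 (SE 0.043) over miR-25-3p. miR-106b-5p gained 0.18 (SE 0.045) over miR-25-3p and changed by -0.10 (SE 0.037) relative to miR-93-5p. The arrays of the cell types did not overlap in any of these 3 pairs, and each exact permutation p was 0.10, also after adjustment over the 3 pairs. None thus passed the threshold, nor could it at this number of arrays. The sizes depended on the processing. With 75th percentile scaling or no normalization, the gain over miR-25-3p fell to 0.17 for miR-93-5p and to 0.040 for miR-106b-5p. With normexp background correction it was 0.14 for miR-93-5p and 0.10 for miR-106b-5p, and miR-106b-5p differed from miR-93-5p by -0.035.

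miR-20b-5p was set against the 3 miRNAs of miR-106b-25 after its values had been seen, so these differences are descriptions. Its log2 difference exceeded that of miR-106b-5p by 1.14 (SE 0.086), that of miR-93-5p by 1.04 (SE 0.070) and that of miR-25-3p by 1.33 (SE 0.069). All 3 kept their direction under each of 15 other settings, in which they ran from 0.36 to 1.39.

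The third paralogous cluster, miR-17-92 on chromosome 14, had 12 mature miRNAs on the array, of which 6 could be tested. After quantile normalization all 6 were higher in type H, but miR-17-3p turned to -0.14 without normalization and to -0.24 with 75th percentile scaling over the miRNAs that every array detected. The median log2 difference of the 6 was 1.20 (range 0.32, for miR-17-3p, to 2.28), beside 0.03 over all 311 miRNAs tested. Over the 20 alternatives the difference of miR-17-3p ran from -0.24 to 2.06. miR-17-3p was also faint, with 16 of 180 spots well above background and a signal of 3.64 to 5.02 intensity units from its own probes. Its deposited totals, in contrast, were 132 to 183. The other 5 kept their direction and stayed past the threshold under all 20 alternatives. By the sums of own probes, miR-18a-5p led with 2.28, followed by miR-19a-3p with 2.24. From the deposited totals per miRNA the differences were 0.89 and 3.62 in that order, so their sizes and order depended on the signal used. miR-20a-5p, which like miR-17-5p differs from miR-20b-5p at 2 bases, had log2 levels of 7.58, 7.58 and 7.53 in type H and 6.22, 6.30 and 6.30 in type L, a difference of 1.29 (SE 0.035, limma adjusted p = 3.8e-06). By this measure miR-20b-5p exceeded miR-20a-5p by 0.26 (SE 0.060), but the sign turned to -0.13 without quantile normalization. No order of the 2 can be read from these arrays.

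**Figure D2:**
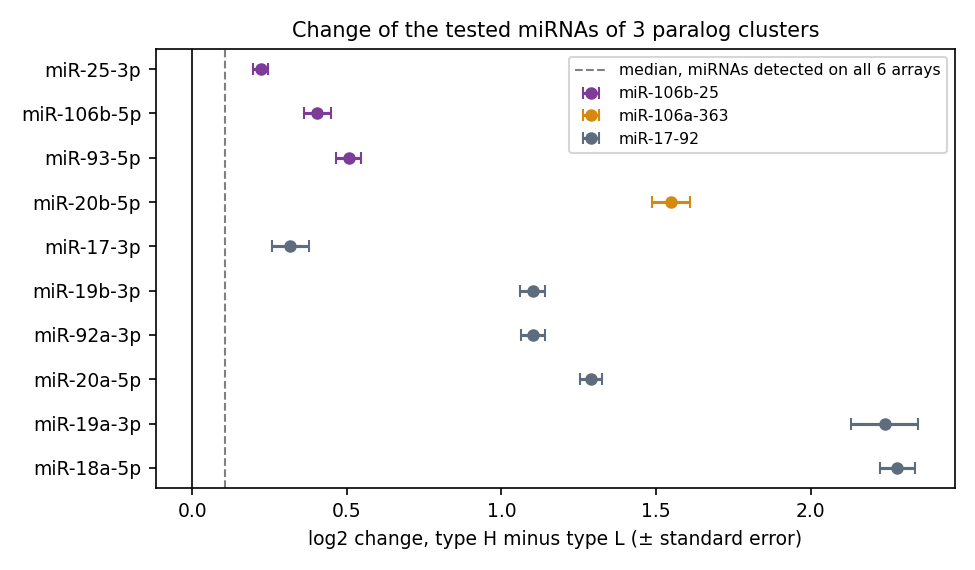
Log2 difference between type H and type L (horizontal axis; points, with bars for the standard error) for the 10 tested miRNAs of the 3 clusters, coloured by cluster. The 3 miRNAs of miR-106b-25 lie between 0.22 and 0.51, miR-20b-5p lies at 1.55, the dashed line marks the median of 0.11 over miRNAs detected on all 6 arrays, and miR-17-3p at 0.32 turned to -0.14 without normalization.

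miR-92a-3p and miR-19b-3p are made from both miR-17-92 and miR-106a-363, with identical mature sequences, and the array maps their probes to chromosomes 14 and X alike. miR-92a-3p rose by 1.10 (SE 0.038, limma adjusted p = 5.0e-06) and miR-19b-3p by 1.10 (SE 0.039, limma adjusted p = 5.1e-06), and their signals cannot be divided between the clusters. Hence, miR-106a-5p with its shared probes aside, miR-20b-5p was the only one called detected among the miRNAs made from miR-106a-363 alone. Whether its probes also read miR-20a-5p was not tested. Of the other carriers of the AUUGCAC seed outside the 3 clusters, miR-32-5p, miR-92b-3p and miR-367-3p were on the array and none was detected on any array.

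How well the array separates miR-20b-5p from miR-20a-5p rests on probes of similar sequence. The probes of 19 bases for the pair are shown with the one base that differs in capitals.
miR-20a-5p probe: ctacctgcactatAagcac
miR-20b-5p probe: ctacctgcactatGagcac
They differ by A14G, counted from the 5′ end of the probe with the miR-20a-5p probe first. Before normalization, miR-20a-5p read 219.3, 184.9 and 175.9 intensity units on the type H arrays. On the type L arrays it read 66.7, 75.7 and 76.9. The miR-20b-5p signal was lower on every array, at 43.5, 35.7 and 35.1 on type H and 14.5, 15.3 and 17.4 on type L. The share of the miR-20b-5p signal that came from miR-20a-5p was not tested.

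Each detected member was read by 2 probes that overlap, so they are not replicates. Without normalization, the log2 difference of miR-20b-5p was 1.18 by its 19-base probe and 1.31 by its 20-base probe. For miR-93-5p it was 0.36 by the 15-base and 0.57 by the 16-base probe, and for miR-106b-5p 0.27 by the 16-base and 0.44 by the 17-base probe. The probes of miR-25-3p gave 0.36 and 0.37. All 8 probes kept the arrays of the cell types apart, with type H above, and the longer probe gave the larger difference for each of the 4 miRNAs. Most of the signal came from the longer probe, for example 138.3 of 172.6 intensity units for miR-106b-5p on the first type H array.

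**Figure D3:**
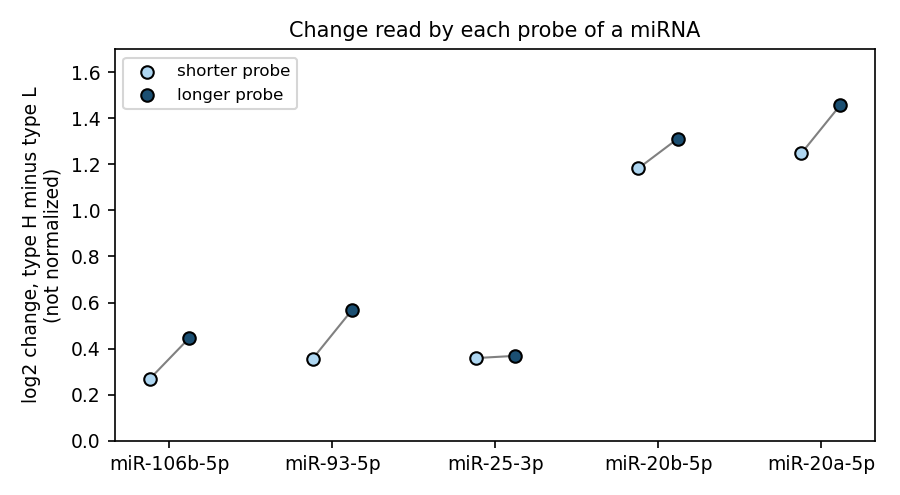
Log2 difference between type H and type L without normalization (vertical axis) read by the shorter (light) and the longer (dark) probe of the 4 detected members and of miR-20a-5p. Each line joins the 2 probes of a miRNA, which gave 0.27 and 0.44 for miR-106b-5p and 1.18 and 1.31 for miR-20b-5p.

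The authors' deposited log2 table gave nearly the same differences. There the difference between type H and type L was 1.56 for miR-20b-5p, 0.50 for miR-93-5p, 0.41 for miR-106b-5p and 0.23 for miR-25-3p. miR-106b-3p and miR-363-3p stood at the floor of that table, between -3.32 and -3.26, on every array. The choice that moved 3 of the members most was a normexp background correction of the spot means with an offset of 50 added. It took miR-20b-5p to 0.67, miR-93-5p to 0.31 and miR-106b-5p to 0.27. The part of the offset in these moves was not tested. miR-25-3p moved from 0.22 to 0.37 where no normalization was applied. Over 20 alternatives, each of the 4 remained higher in type H and past the threshold, the highest adjusted p being 0.034, by limma for miR-25-3p on the deposited total per miRNA.

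**Figure D4:**
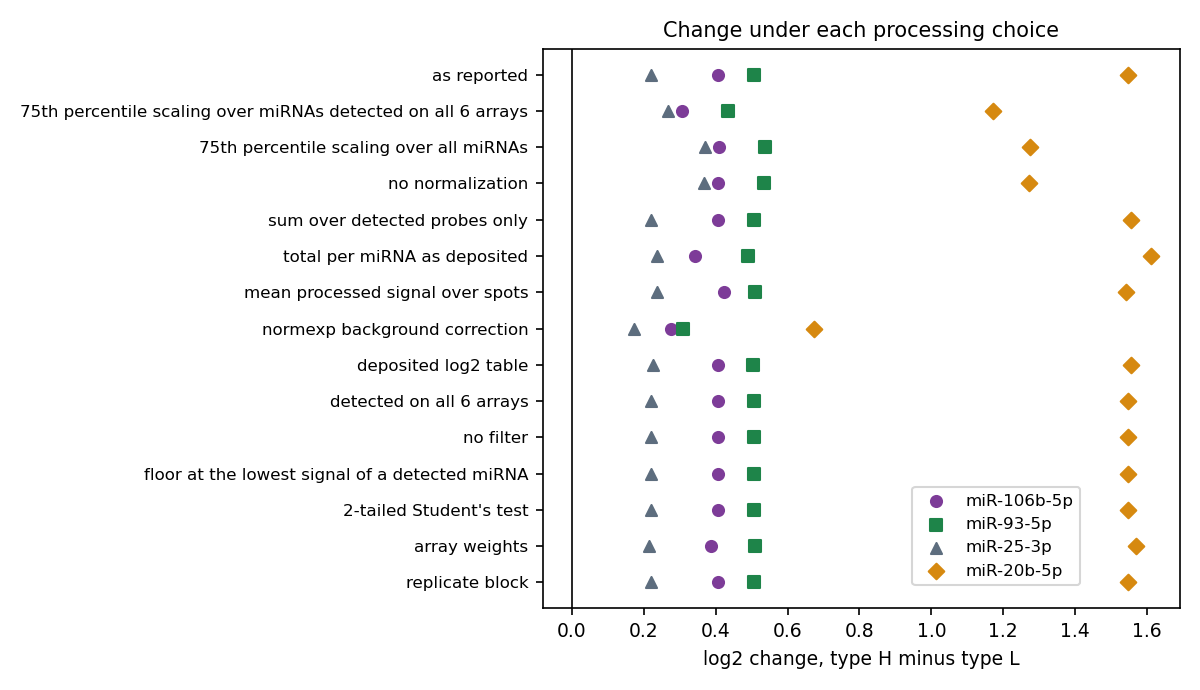
Log2 difference between type H and type L (horizontal axis) of the 4 detected members under each processing choice (rows), leaving out single arrays not shown. All points lie above 0, and miR-20b-5p runs from 0.67 with normexp background correction to 1.61 with the deposited total per miRNA.

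By the root mean square distance between log2 levels, each centred on its mean over the 6 arrays, the nearest of 230 other miRNAs detected on every array were found for each member. miR-106b-5p lay nearest to miR-322-5p (0.033) and miR-378d (0.035). For miR-93-5p the nearest were miR-361-5p (0.041) and miR-669f-3p (0.044), and for miR-25-3p they were miR-378a-3p (0.025) and miR-3102-5p.2-5p (0.030). miR-20b-5p lay farther from its nearest, miR-185-5p (0.086) and miR-28a-5p (0.087), whose own differences were 1.46 and 1.39. No member was among the nearest 2 of another member.

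Some other signals moved in the same direction as the members, while many miRNAs moved the other way. Without normalization, the median log2 difference of the 231 miRNAs detected on all 6 arrays was -0.12. Of the 236 miRNAs that limma called without normalization, 95 were higher and 141 lower in type H. All 10 detected control features of the array were brighter on the type H slide before normalization, by 0.22 to 1.46 (median 0.61) on the log2 scale, where the 4 members differed by 0.37 to 1.27. In the log2 table of the authors, 5 of the 10 had a difference of 0 and the other 5 were higher in type H by 0.17 to 1.41, which reaches close to the 1.56 of miR-20b-5p there. Of 7 miRNAs used as stromal and mural markers, 6 were detected on all 6 arrays, 5 were higher and 1 was lower in type H, and they summed to 898 to 1137 intensity units on type H and 769 to 879 on type L arrays. Both arms of miR-126a, the endothelial marker, were detected on no array, with sums of 2.49 to 4.74 and -0.096 to 0.67. None of 6 haematopoietic markers was detected, with sums of 4.75 to 7.28 and -0.68 to 0.49. The part of these signals in the members' differences was not tested. Per array, 263 to 281 miRNAs were detected in type H and 295 to 309 in type L, and the number of arrays limits the precision.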

How the data were processed

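MiRNA was measured on 1-colour Agilent arrays, with 3 arrays per cell type. The authors deposited spot intensities from Feature Extraction 10.7.1.1 without normalization between arrays, together with a log2 table that their methods describe as quantile-normalized and whose offset is not given. Detection of a miRNA and a spot's standing over background are flags of that software in the deposited files. The methods name small RNA labelling and one array design, whereas the labels name a cRNA kit and the file headers another design and the build mm9.

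On each array the deposited total per miRNA was over 1% above what its own probes add up to for 66 to 85 detected miRNAs and over 1% below it for 3 to 8. The cause was not tested, and the totals of the 4415 probes were summed per miRNA instead. Sums were quantile-normalized over 1881 miRNAs, raised to 1 where lower, and put on the log2 scale. A miRNA was kept if every array of a cell type detected it, which left 311 and removed 1570. Type H was set against type L with limma 3.58.1 in R 4.3.3, using lmFit and eBayes, and p-values were adjusted by Benjamini and Hochberg's method with 0.05 as the threshold. Tables and plots were made in Python 3.11.15 with pandas 2.3.3 and matplotlib 3.10.9. On simulated data with 311 miRNAs, limma recovered 60 of 60 changed by 1 on the log2 scale with 3 false calls, and called 0 where none was changed. The simulation held no normalization step and no slide effect, so it checks the fit alone and gives no rate of false calls for these arrays.

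The members and lists were chosen with earlier results of these data known. The miRNAs named are the members, the lists of related and marker miRNAs, and the 2 nearest each member. Alternatives covered normalization, signal, background correction, filter, floor, test, array weights, a replicate block and leaving out each array. The normexp background correction added an offset of 50 to the spot intensities wherever it is named. From the array's mapping of its probes, the chromosomes were used but not the positions along them.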

Additional observations from a re-analysis of the deposited data

How the results depend on the processing

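The 4 members kept their direction and stayed past the threshold under all 20 alternatives. Leaving out one array at a time gave 1.51 to 1.61 for miR-20b-5p, 0.47 to 0.53 for miR-93-5p, 0.38 to 0.44 for miR-106b-5p and 0.21 to 0.23 for miR-25-3p on the log2 scale. The same step moved the number of miRNAs called between 260 and 266, against 270 with all arrays. It moved the difference of the changes of miR-106b-5p and miR-93-5p between -0.13 and -0.077, that of miR-106b-5p and miR-25-3p between 0.17 and 0.22, and that of miR-93-5p and miR-25-3p between 0.25 and 0.32. With no filter 413 miRNAs were called, but limma then warned that its estimate of the spread was unreliable. The share of calls that were higher in type H was 51.5% with quantile normalization, 35.8% with each array scaled to its 75th percentile over the miRNAs that all 6 arrays detected, 40.7% with that scaling over all miRNAs and 40.3% with no normalization. The deposited totals gave 218 calls and the methods' t-test gave 264 calls after Benjamini-Hochberg adjustment. The change of miR-20b-5p minus that of miR-20a-5p, a comparison chosen after seeing the data, reversed from 0.26 to -0.13 with either 75th percentile scaling and with no normalization, and to -0.35 with normexp background correction. miR-17-3p of the third cluster, added in the same way, went from 0.32 to -0.24 and -0.14 with those scalings over the miRNAs detected on every array and over all miRNAs, and to -0.14 with no normalization. With the deposited totals it was 0.11 and no longer past the threshold. Other choices raised it, to 1.07 with the sum over detected probes only and to 2.06 at the highest. The causes were not tested. Same-numbered arrays of the 2 cell types correlated at 0.016, -0.12 and 0.15 in their deviations, and 2 of 6 arrays correlated best with their own number. With so few arrays this check cannot decide whether same-numbered arrays came from the same mice. The main fit treated them as unpaired, and with the replicate block 262 miRNAs were called. The slide could not be run as a block because each cell type had a slide of its own. Members below background have no measured level at this signal.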
